A study of Homo sapiens with 6 samples.

Results

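The Aurora and Polo-like kinases are serine/threonine kinases of cell division, and 6 of their genes are described here: AURKA, AURKB, PLK1, PLK2, PLK3 and PLK4. The genes were chosen by symbol, 6 of the 25662 gene symbols in the deposited table. RNA was sequenced from HCT116 cells, a human colorectal carcinoma line with an intact p53 gene. BMH-21 was given at 1 µM for 24 h in 3 of the libraries, and the other 3 are controls. BMH-21 intercalates into DNA and blocks RNA polymerase I, which transcribes ribosomal RNA. The protocol text names DMSO for controls while their titles give 0 h, so time in culture and the drug cannot be told apart if the controls were harvested at the start. The series describes its replicates as biological. The labels call the RNA polyadenylated while the library protocol describes removal of ribosomal RNA, so which RNA was enriched is uncertain. Values are TPM, a transcript's share of its library after division by its length, so levels of different genes can be set side by side.

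Aurora A, encoded by AURKA, matures centrosomes and builds the spindle once the protein TPX2 has activated it. Aurora B, encoded by AURKB, is the enzyme of the chromosomal passenger complex, which corrects faulty attachments of chromosomes to the spindle and guides cytokinesis. PLK1 drives mitotic entry, spindle assembly and exit from mitosis, and PLK4 starts the duplication of centrioles. PLK2 and PLK3 share the kinase domain and the polo boxes of PLK1, but are best known as stress-induced and immediate early genes, and PLK2 and PLK3 are described targets of p53. In cycling cells the genes of mitotic kinases are transcribed late in the cycle through promoter elements bound by the MuvB complexes and FOXM1, and p53 is known to shut them off through p21 and the DREAM repressor.

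The promoter windows of the kinases are shown so that late cell cycle elements and p53 elements can be looked for next to the values of each gene. RefSeq sequences of GRCh38.p14, from 250 bases before to 50 bases after a transcription start, were matched for 5 of the 6 genes. Capitals mark matches, on either strand, to TTTGAA (the cell cycle genes homology region, or CHR, bound by MuvB complexes), CCAAT (the NF-Y box), TATAAA or TATATAA (the TATA box), the p53 half-site, and the E2F-type elements TTTCCCGC, TTTCGCGC, TTTGGCGC and TTTGCCGC. AURKB has 2 annotated starts and PLK4 has 3, of which the one with the lowest coordinate is shown.
PLK1, chr16:23678639-23678938, plus strand: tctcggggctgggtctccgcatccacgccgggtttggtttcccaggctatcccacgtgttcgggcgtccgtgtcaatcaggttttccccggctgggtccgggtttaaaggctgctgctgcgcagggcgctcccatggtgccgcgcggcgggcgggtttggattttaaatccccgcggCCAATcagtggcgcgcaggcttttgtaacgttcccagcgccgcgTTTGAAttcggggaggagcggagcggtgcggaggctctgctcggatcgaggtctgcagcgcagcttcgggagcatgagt
AURKB, chr17:8210176-8210475, minus strand: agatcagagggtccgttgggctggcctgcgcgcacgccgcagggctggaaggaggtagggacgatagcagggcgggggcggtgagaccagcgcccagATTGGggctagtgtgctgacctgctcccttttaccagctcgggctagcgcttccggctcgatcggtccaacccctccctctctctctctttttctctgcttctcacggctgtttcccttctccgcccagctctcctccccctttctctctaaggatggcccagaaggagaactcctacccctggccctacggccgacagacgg
PLK4, chr4:127880643-127880942, plus strand: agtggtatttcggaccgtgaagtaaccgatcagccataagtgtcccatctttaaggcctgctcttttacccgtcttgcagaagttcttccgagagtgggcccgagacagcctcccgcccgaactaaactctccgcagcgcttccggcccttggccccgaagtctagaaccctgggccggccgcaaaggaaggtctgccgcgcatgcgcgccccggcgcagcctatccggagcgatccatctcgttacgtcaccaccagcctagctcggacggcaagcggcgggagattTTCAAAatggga
PLK2, chr5:58460037-58460336, minus strand: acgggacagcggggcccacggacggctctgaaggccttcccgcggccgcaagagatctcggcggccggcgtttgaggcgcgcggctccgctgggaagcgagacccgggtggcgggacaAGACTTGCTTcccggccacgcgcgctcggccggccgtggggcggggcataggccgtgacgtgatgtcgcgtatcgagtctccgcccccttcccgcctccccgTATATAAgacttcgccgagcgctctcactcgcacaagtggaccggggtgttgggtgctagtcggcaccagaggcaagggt
PLK3, chr1:44800127-44800426, plus strand: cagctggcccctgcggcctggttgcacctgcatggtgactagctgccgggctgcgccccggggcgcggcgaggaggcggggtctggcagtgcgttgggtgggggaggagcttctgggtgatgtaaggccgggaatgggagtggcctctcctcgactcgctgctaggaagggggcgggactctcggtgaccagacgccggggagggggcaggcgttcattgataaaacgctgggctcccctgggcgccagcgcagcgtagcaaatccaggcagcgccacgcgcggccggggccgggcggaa

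In the PLK1 window a CCAAT box at -73 was followed by a CHR at -29, counted from the start of transcription. TTTGAA occurs in 15.2% of all 35116 windows of this length and CCAAT in 34.6%. The AURKB window held a reversed CCAAT box, at -153 from the start shown, and no TTTGAA. In PLK4 the first window held TTTGAA on the opposite strand at position 39 after the start, and the third window a reversed CCAAT box at -86. The PLK2 window held a TATA box at -30, a match found in 12.6% of windows. It also held 1 match to the p53 half-site at -132, which 6.63% of windows have. The PLK3 window held none of the motifs searched, and no E2F-type element was found in any window of these genes. These matches describe letters in short windows and say nothing of binding, and elements outside the windows were not searched.

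The 3 mitotic kinases with the higher levels, AURKA, AURKB and PLK1, fell after BMH-21, and PLK2 and PLK3 rose. A filter kept the 12041 genes with at least 1 TPM in at least 3 of the 6 libraries, and 5 of the 6 kinases were among them. By limma on log2(TPM + 1), with Benjamini-Hochberg adjustment over all genes kept, 3 of these 5 were lower and 2 were higher at an adjusted p under 0.05. The share of all genes kept that passed in either direction was 36.4%, with 16.9% lower and 19.4% higher. The sixth gene, PLK4, stayed under the filter and is given as values. The BMH-21 and control libraries did not overlap for any of the 6 kinases, while 51.5% of all genes kept were free of overlap, 22.0% with lower and 29.6% with higher values after BMH-21. In bulk RNA, fewer cells in mitosis and less RNA per cell cannot be told apart.

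**Figure D1:**
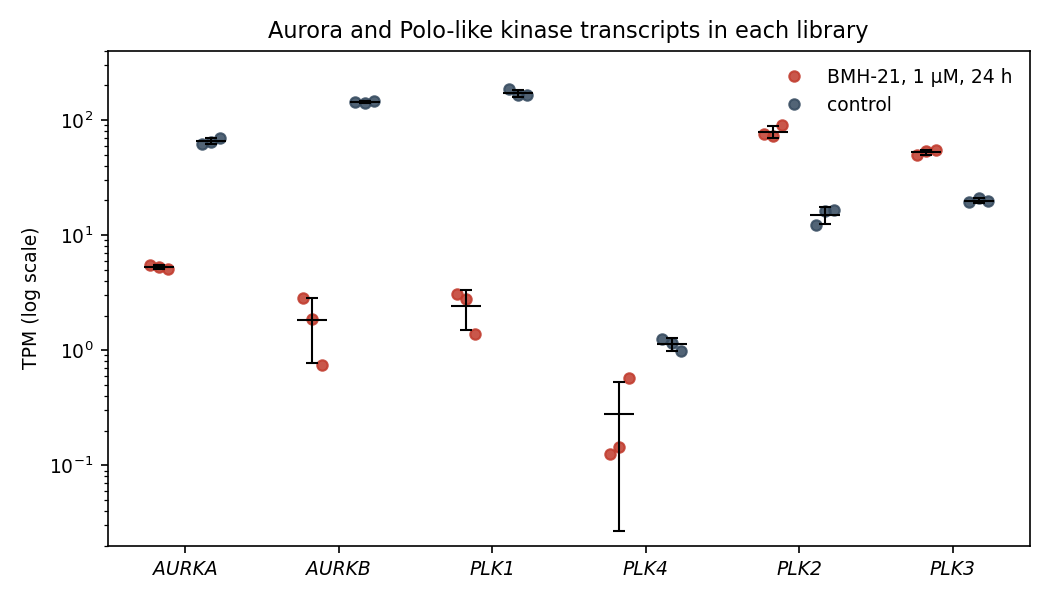
TPM of each kinase gene (log axis) in the 3 BMH-21 libraries (red) and the 3 control libraries (dark), with the mean and SD as black bars. AURKB and PLK1 lie near 2 TPM after BMH-21 and above 140 TPM in controls, while PLK2 and PLK3 lie higher after BMH-21 than in controls.

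AURKB (chromosome 17, 8204733 to 8210600, minus strand; GENCODE 29 on GRCh38) had 2.82, 1.88 and 0.748 TPM in BMH-21 libraries 1 to 3, against 144, 140 and 147 TPM in control libraries 1 to 3. Every BMH-21 library was low, and they were less alike than the controls, with a ratio of highest to lowest of 3.76 after BMH-21 and 1.05 in controls. The mean was 1.82 ± 1.04 TPM after BMH-21 and 143 ± 3.30 TPM in controls (SD, n = 3 each), 79.1-fold lower. The log2 fold change, -5.75 (SE 0.245), had a limma adjusted p of 7.2e-07 and was the second largest fall on the log2(TPM + 1) scale among the 12041 genes kept. By the ratio of mean TPM it stood in place 7 among the 12040 genes above 0 in both groups.

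PLK1 (chromosome 16, 23677656 to 23690367, plus strand) had 3.08, 2.78 and 1.39 TPM in the BMH-21 libraries, against 185, 166 and 164 TPM in the controls. As with AURKB, the lowest BMH-21 value was in replicate 3. The mean was 2.42 ± 0.903 TPM after BMH-21 and 171 ± 11.7 TPM in controls (SD, n = 3 each), 71.0-fold lower. Its log2 fold change, -5.69 (SE 0.192), had a limma adjusted p of 2.5e-07 and followed that of AURKB as the third largest fall on the log2(TPM + 1) scale, and stood in place 9 by the ratio of mean TPM. The profile of PLK1 over the 6 libraries was also close to that of AURKB, with a root mean square difference of 0.127 between their centred log2 values.

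AURKA (chromosome 20, 56369389 to 56392337, minus strand) had 5.48, 5.28 and 5.07 TPM in the BMH-21 libraries, against 62.1, 64.7 and 69.4 TPM in the controls. Its values after BMH-21 were the most even of the 6 genes, with a coefficient of variation of 3.88%, where AURKB had 57.0% and PLK1 37.4%. The mean was 5.28 ± 0.205 TPM after BMH-21 and 65.4 ± 3.72 TPM in controls (SD, n = 3 each), so 8.06% of the control level was left, against 1.26% for AURKB and 1.41% for PLK1. The log2 fold change of AURKA, -3.40 (SE 0.104), had a limma adjusted p of 1.7e-07 and stood in place 70 among the falls on that scale, and in place 139 by the ratio of mean TPM.

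PLK4 (chromosome 4, 127880861 to 127899195, plus strand) was scarce in both groups. It had 0.125, 0.143 and 0.572 TPM in the BMH-21 libraries, against 1.26, 1.15 and 0.983 TPM in the controls. The controls were higher without overlap, and BMH-21 replicate 3, the lowest library for AURKB and PLK1, was the highest of its group here. The means were 0.280 ± 0.253 TPM after BMH-21 and 1.13 ± 0.140 TPM in controls (SD, n = 3 each), 4.04-fold lower between values near the floor of measurement. Without BMH-21 replicate 3 the mean after BMH-21 was 0.134 TPM, 8.45-fold lower than in controls. On the log2(TPM + 1) scale the difference was -0.75, and the two-sided exact permutation test gave p = 0.10, the smallest p that 3 against 3 libraries allow. With no filter on low values, limma gave PLK4 an adjusted p of 0.018.

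PLK2 (chromosome 5, 58453982 to 58460260, minus strand) had 74.9, 72.9 and 90.1 TPM in the BMH-21 libraries, against 12.1, 16.2 and 16.5 TPM in the controls. Replicate 3 was the highest of the BMH-21 libraries and replicate 1 the lowest of the controls. The mean was 79.3 ± 9.43 TPM after BMH-21 and 15.0 ± 2.46 TPM in controls (SD, n = 3 each), 5.30-fold higher. The log2 fold change of PLK2, 2.34 (SE 0.139), had a limma adjusted p of 4.6e-06 and stood in place 18 among the rises on that scale, and in place 55 by the ratio of mean TPM.

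PLK3 (chromosome 1, 44800225 to 44805990, plus strand) had 49.3, 53.5 and 54.6 TPM in the BMH-21 libraries, against 19.2, 21.0 and 19.6 TPM in the controls. Both groups were even, with coefficients of variation of 5.32% after BMH-21 and 4.68% in controls. The mean was 52.5 ± 2.79 TPM after BMH-21 and 19.9 ± 0.933 TPM in controls (SD, n = 3 each), 2.63-fold higher. The log2 fold change of PLK3, 1.35 (SE 0.092), had a limma adjusted p of 1e-05 and stood in place 163 among the rises on that scale, and in place 287 by the ratio of mean TPM.

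**Figure D2:**
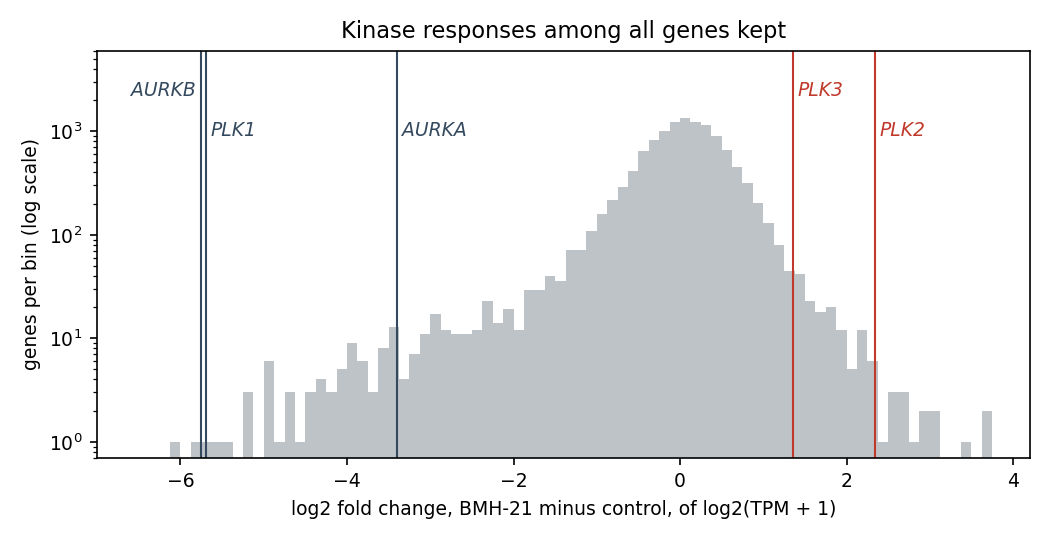
Histogram of the log2 fold changes of all 12041 genes kept (BMH-21 minus control, bins of equal width, log count axis), with lines at the 5 kinases that passed the filter. AURKB and PLK1 stand at the left end, at -5.75 and -5.69, AURKA at -3.40, PLK3 at 1.35 and PLK2 at 2.34.

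BMH-21 replicate 3 and control replicate 1 differed from the rest of their groups in overall profile, with mean squared log2 deviations from the group mean of 0.0696 and 0.0586, where the remaining libraries had 0.0274 to 0.0331. Mitochondrial-encoded transcripts took 26.1% of TPM in BMH-21 replicate 3, against 20.3% and 21.3% in the other BMH-21 libraries, and 25.8% in control replicate 1, against 21.6% and 21.3% in the other controls. Without both libraries the log2 fold changes were -3.42 for AURKA, -5.44 for AURKB, -5.40 for PLK1, 2.11 for PLK2 and 1.30 for PLK3. Library totals were 990744 to 992038 TPM, and read depth is unknown. The colon epithelium markers listed were EPCAM, CDH1, KRT8, KRT18, KRT19 and VIL1. They summed to 11400 to 12990 TPM after BMH-21 and 5127 to 5362 TPM in controls. Of these 6 markers 5 were kept, and 4 of them rose, where 19.4% of all genes kept were higher. The part of this marker rise in the kinase values was not tested. Summed markers of fibroblasts were at 1.88 to 3.73 TPM after BMH-21 and 3.77 to 4.90 TPM in controls, with COL1A2, DCN and LUM listed at 0 in every library. Those of leukocytes were at 0.651 to 1.20 TPM after BMH-21 and 0.569 to 0.783 TPM in controls, and those of endothelium at 0.195 to 0.222 TPM after BMH-21 and 0.157 to 0.186 TPM in controls.

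The order of the family changed, though AURKA stood in place 3 and PLK4 in place 6 in both groups. After BMH-21 it ran PLK2, PLK3, AURKA, PLK1, AURKB and PLK4 by mean TPM, against PLK1, AURKB, AURKA, PLK3, PLK2 and PLK4 in controls. The ranges of neighbours in this order overlapped for 1 pair, PLK1 and AURKB after BMH-21. The mean of PLK3 after BMH-21 was 9.95 times that of AURKA, the next gene in the order. All 6 kinases together had 136, 136 and 153 TPM in the BMH-21 libraries, against 424, 409 and 417 TPM in the controls, so the summed level after BMH-21 was 0.340 of that in controls. For AURKA, AURKB, PLK1 and PLK4 alone the sum was 9.79 ± 1.88 TPM after BMH-21 and 381 ± 10.3 TPM in controls (SD, n = 3 each).

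Among the Polo-like kinases the groups lay further apart in makeup than in total. PLK1 to PLK4 summed to 134 ± 10.7 TPM after BMH-21 and 207 ± 8.86 TPM in controls (SD, n = 3 each), a ratio of 0.648. PLK2 and PLK3 made up 97.5%, 97.7% and 98.7% of that sum in the BMH-21 libraries, against 14.4%, 18.2% and 18.0% in the controls. PLK1 alone held 1.84% ± 0.784 of it after BMH-21 and 82.6% ± 2.11 in controls. For each of these sums and shares the groups did not overlap, and the two-sided exact permutation test gave p = 0.10, the smallest p this design allows.

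**Figure D3:**
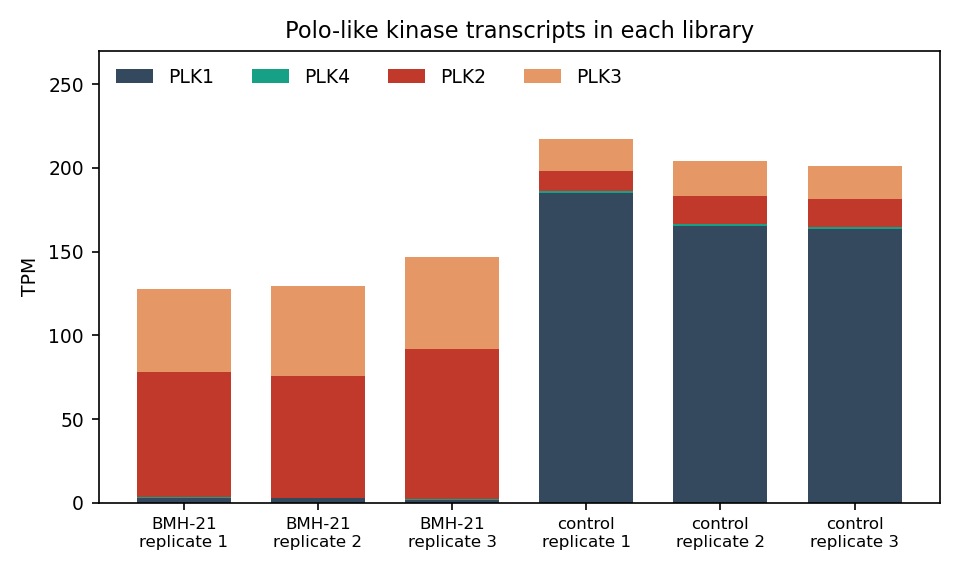
Stacked TPM of PLK1, PLK4, PLK2 and PLK3 in each of the 6 libraries, BMH-21 libraries on the left. PLK2 and PLK3 fill 97.5% to 98.7% of the bars after BMH-21 and 14.4% to 18.2% in controls, where PLK1 fills most of the bar.

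Close relatives were also set against each other by their ratio within each library. AURKB stood at 0.514, 0.356 and 0.148 times AURKA in the BMH-21 libraries, against 2.32, 2.16 and 2.11 times in the controls. AURKA thus held 75.6% ± 10.7 of the Aurora TPM after BMH-21 and 31.3% ± 1.03 in controls (SD, n = 3 each). On the log2(TPM + 1) scale the ratio of AURKB to AURKA was 2.35 lower after BMH-21. The ratio of PLK2 to PLK1 was 24.3, 26.2 and 65.0 in the BMH-21 libraries, against 0.0656, 0.0979 and 0.101 in the controls. The ratio of PLK2 to PLK3 was 1.52, 1.36 and 1.65 in the BMH-21 libraries, against 0.631, 0.772 and 0.845 in the controls, a log2 difference of 0.98 between the groups. The log2 differences were 7.05 for PLK3 against PLK1 and -4.94 for PLK1 against PLK4, the second of which the pseudocount shapes because PLK4 lies near 1 TPM or under it. These 5 pairs were compared, the groups did not overlap in any of them, and the two-sided exact permutation p was 0.10 for each, also after Benjamini-Hochberg adjustment, which is the smallest p possible.

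Family relatives, pseudogenes and overlapping genes were looked at as possible sources of shared reads. AURKC, the Aurora kinase of meiosis, averaged 0.632 ± 0.313 TPM after BMH-21 and 0.619 ± 0.275 TPM in controls (SD, n = 3 each), with overlapping groups. PLK5, a relative without a full kinase domain in humans, had 0.187, 0.0451 and 0.0395 TPM in the BMH-21 libraries, against 0.0250 and 0.0312 TPM in controls 2 and 3, and was listed at 0 in control 1. The processed pseudogenes AURKAP1 and AURKBP1 were each listed at 0 in 5 of the 6 libraries. ERN2 overlaps PLK1 by 42 bases on the opposite strand and averaged 0.591 ± 0.169 TPM after BMH-21 and 0.412 ± 0.214 TPM in controls (SD, n = 3 each). DYNLT4 overlaps PLK3 by 78 bases on the opposite strand and averaged 1.52 ± 0.738 TPM after BMH-21 and 0.234 ± 0.180 TPM in controls. An antisense gene without a symbol overlaps PLK1 by 641 bases, and the small nuclear RNA gene RNU6-583P overlaps PLK4 by 92 bases on the same strand. Both were not analysed here. As the strand setting is unknown here, reads in these overlaps cannot be assigned with certainty.

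Likeness to other genes was measured as the root mean square difference between mean-centred log2(TPM + 1) values over the 6 libraries. For AURKB the nearest genes outside the family were UBE2C, the ubiquitin-conjugating enzyme of the anaphase-promoting complex, ASF1B, a histone chaperone, and CDC20, an activator of that complex, at 0.215, 0.257 and 0.293. For PLK1 the same genes came first, ASF1B at 0.146, UBE2C at 0.158 and CDC20 at 0.264. CDC20 averaged 10.5 ± 3.74 TPM after BMH-21 and 407 ± 10.4 TPM in controls (SD, n = 3 each). AURKA was nearest to XRCC3, the transcription factor gene E2F2 and the helicase gene PIF1, at 0.0266, 0.0754 and 0.0900. The pseudocount compresses values under 1 TPM, so by mean TPM E2F2 and PIF1 lay further from AURKA, which was 12.4-fold lower. E2F2 averaged 0.446 ± 0.112 TPM after BMH-21 and 14.5 ± 0.161 TPM in controls, 32.5-fold lower, and PIF1 was 93.2-fold lower. For XRCC3, a gene of homologous recombination, the means were 3.14 ± 0.0240 TPM after BMH-21 and 43.2 ± 1.78 TPM in controls (SD, n = 3 each).

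PLK2 was nearest to BTG2, the sulfatase gene SULF2 and the decoy receptor gene TNFRSF10C, at 0.101, 0.115 and 0.117. BTG2, an antiproliferative gene and a p53 target, averaged 110 ± 14.7 TPM after BMH-21 and 23.7 ± 2.47 TPM in controls (SD, n = 3 each). PLK3 was nearest to APOBEC3C, a cytidine deaminase gene, EPS8L2 and TAP1, a peptide transporter gene, at 0.0385, 0.0624 and 0.0635. Its smaller change has more neighbours: 326 genes other than the 6 kinases lay within 0.25 of PLK3, 28 within 0.25 of PLK2, 44 of AURKA, 2 of PLK1 and 1 of AURKB. These counts and the nearest genes cover genes kept and leave out clone and database identifiers. For PLK4 the nearest profiles were those of KHSRP, CS and NUMA1, genes at far higher TPM that match it because the pseudocount compresses low values.

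Activators and partners of Aurora A moved unevenly. Of 7 listed genes 6 were kept, and all passed, 5 of them lower and 1 higher. Over all genes kept, 16.9% were lower and 19.4% higher. The log2 fold changes of the 6 listed genes kept had a median of -0.98, where that of all genes kept was 0.06. TPX2, which activates Aurora A on spindle microtubules, averaged 6.05 ± 0.650 TPM after BMH-21 and 79.5 ± 8.58 TPM in controls (SD, n = 3 each), a log2 fold change of -3.51 close to that of AURKA. TACC3, which Aurora A phosphorylates to bind spindle microtubules, had a log2 fold change of -3.87, and BORA, through which Aurora A activates PLK1, one of -1.08. BORA averaged 0.908 TPM after BMH-21 and 3.07 TPM in controls, 3.38-fold lower, a change that the pseudocount compresses. AJUBA, a LIM protein that can activate Aurora A and also acts at cell junctions, rose to 33.2 ± 6.06 TPM after BMH-21, against 15.4 ± 0.486 TPM in controls (SD, n = 3 each), and its limma adjusted p was 0.00046 at a log2 fold change of 1.05.

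The passenger complex fell together with its enzyme. All 6 genes kept of 7 listed for the complex and its loading were lower, and their median log2 fold change was -3.28. Over all genes kept, 16.9% were lower and 19.4% higher. BIRC5, which encodes survivin, averaged 6.85 ± 3.05 TPM after BMH-21 and 219 ± 2.48 TPM in controls (SD, n = 3 each), and CDCA8, which encodes borealin, 1.03 ± 0.252 TPM after BMH-21 and 55.7 ± 3.17 TPM in controls. INCENP, the scaffold that activates Aurora B, fell less, with a log2 fold change of -2.97, where BIRC5 had -4.90 and CDCA8 -4.81. BUB1, the kinase that marks centromeres for the complex, had -3.59. Among Aurora B substrates, all 7 genes kept of 8 listed were lower, with a median of -3.34. The kinesins KIF2C and KIF20A had log2 fold changes of -5.19 and -4.70, the centromeric histone CENPA -3.87, and RACGAP1 of the central spindle -3.34.

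Partners and substrates of PLK1 were nearly all lower, 14 of 15 genes kept, and none was higher. Their median log2 fold change was -2.28. Over all genes kept, 16.9% were lower and 19.4% higher. CCNB1, which encodes cyclin B1, averaged 11.3 ± 2.12 TPM after BMH-21 and 265 ± 23.4 TPM in controls (SD, n = 3 each). CDCA5, which encodes sororin, a protector of sister cohesion, had a log2 fold change of -4.95, PRC1 of the spindle midzone -4.21, and BUB1B of the spindle checkpoint -4.01. The gene that did not pass was WAPL, the cohesin release factor, at 0.10, named after its value was seen. Of the centriole duplication genes, the pathway of PLK4, 7 of 13 were kept, of which 3 fell and 4 missed the threshold, with a median of -0.19. As 36.4% of all genes kept passed in either direction, near this count, it is no result about the centriole genes. STIL, a partner that PLK4 phosphorylates, averaged 0.491 ± 0.0569 TPM after BMH-21 and 6.51 ± 1.68 TPM in controls (SD, n = 3 each). CEP192, which recruits PLK4 to the centriole, and CNTROB, which encodes centrobin of daughter centrioles, had log2 fold changes of -0.73 and -0.72. By mean TPM CEP192 was 2.80-fold and CNTROB 1.67-fold lower, since the pseudocount compresses the low values of CEP192.

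**Figure D4:**
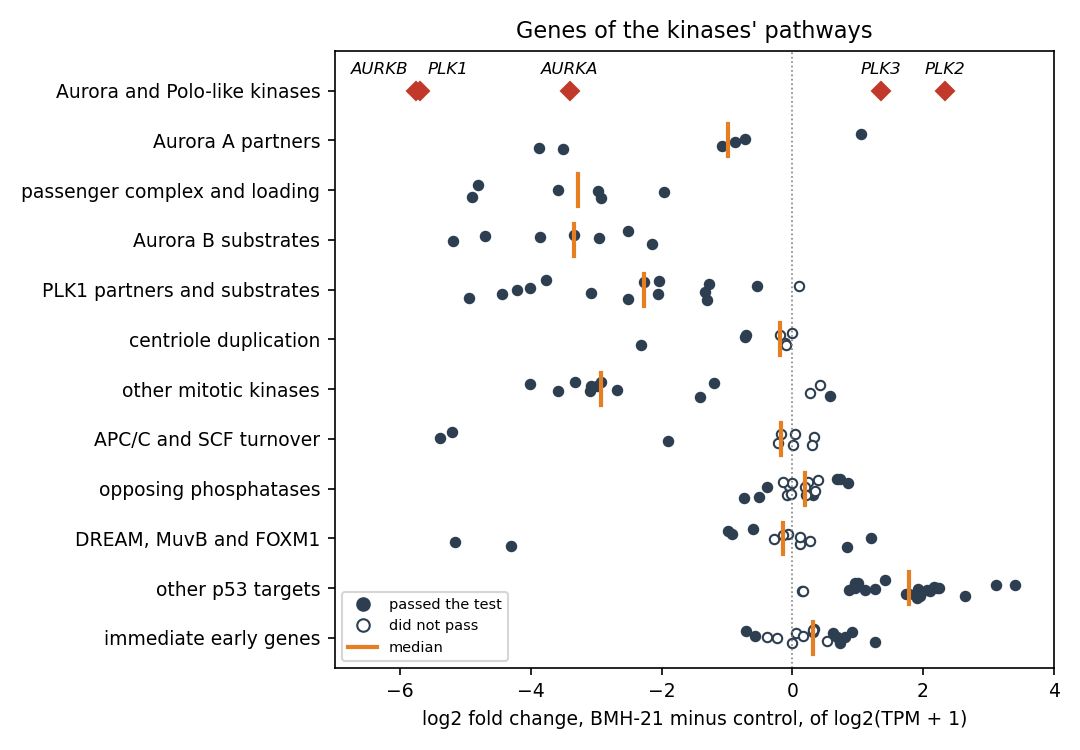
Log2 fold changes (BMH-21 minus control) of the kept genes of each pathway list, with the 5 kept kinases as diamonds in the top row, filled circles for genes that passed limma and open ones for those that did not, and an orange bar at each median. The medians run from -3.34 for Aurora B substrates to 1.78 for other p53 targets, and a few genes stand in more than 1 row.

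Most of the other mitotic kinases were lower after BMH-21. All 13 were kept, of which 10 fell, 1 rose and 2 missed the threshold. Over all genes kept, 16.9% were lower and 19.4% higher. The median log2 fold change of the 13 kinases was -2.93. The larger falls on the log2(TPM + 1) scale were those of BUB1B, BUB1, PBK and MELK, at -4.01, -3.59, -3.32 and -3.10. All were smaller on this scale than those of AURKB and PLK1. This order depends on the pseudocount. By the ratio of mean TPM NEK2 fell most of the 13, 43.6-fold, where BUB1B was 37.3-fold and MELK 12.4-fold lower. The kinases of the NEK6, NEK7 and NEK9 module, which acts downstream of PLK1 in centrosome separation, had 0.57, 0.42 and 0.27, of which NEK6 passed as higher. NEK2, a relative that separates centrosomes, passed as lower, at -2.99. These NEK genes were named after their values were seen. Of 9 genes for turnover of these kinases by the APC/C and SCF ubiquitin ligases, 3 fell and 6 missed the threshold, with a median of -0.17. The share of all genes kept that passed in either direction, 36.4%, is near this count, which is no result about the turnover genes. The lower ones were the mitotic components UBE2C, CDC20 and UBE2S, at -5.38, -5.21 and -1.90. Without BMH-21 replicate 3 and control replicate 1, 6 of the 9 genes passed, while 4144 of all genes kept were lower and 2917 higher.

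Among regulators of mitotic transcription, 5 of the 13 genes kept of 16 listed fell, 2 rose and 6 missed the threshold, with a median of -0.14. Over all genes kept, 16.9% were lower and 19.4% higher, so the 2 rises of 13 are near the overall share. FOXM1, an activator of G2/M genes, averaged 2.44 ± 0.190 TPM after BMH-21 and 67.2 ± 2.84 TPM in controls (SD, n = 3 each), and MYBL2, the activating partner of MuvB, 2.79 ± 0.950 TPM after BMH-21 and 132 ± 3.68 TPM in controls. E2F5, an E2F of the DREAM repressor, rose, with a log2 fold change of 1.20, while the MuvB subunit LIN52 had -0.98. TTTGAA stood in a promoter window of 18.2% of all genes that have one. It did so for 7 of 13 PLK1 partners and substrates (53.8%), 3 of 6 Aurora B substrates (50.0%), 3 of 6 Aurora A partners (50.0%) and 2 of 5 genes of the passenger complex (40.0%). It was found for 6 of 13 regulators of mitotic transcription (46.2%), 5 of 11 centriole duplication genes (45.5%), 4 of 9 other mitotic kinases (44.4%) and 3 of 7 turnover genes (42.9%). The remaining lists had it in 4 of 14 opposing phosphatases (28.6%), 4 of 14 immediate early genes (28.6%) and 3 of 20 other p53 targets (15.0%). A gene was counted if any of its windows held TTTGAA, and a few genes stand in more than 1 list. No list was tested against all genes.

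The rise of PLK2 and PLK3 was set beside the changes of other p53 targets and of immediate early genes. Of 24 other p53 targets 23 were kept, of which 21 rose, none fell and 2 missed the threshold, and their median log2 fold change was 1.78. PLK2, at 2.34, lay above that median and PLK3, at 1.35, under it. CDKN1A, MDM2, TP53I3 and RRM2B had log2 fold changes of 3.40, 3.12, 2.64 and 2.25. The immediate early genes, the other class to which PLK2 and PLK3 are assigned, had 8 of 17 kept genes higher and 2 lower. The other 7 missed the threshold, and the median of the class was 0.31. Of all genes kept 19.4% were higher and 16.9% lower, with a median of 0.06. Whether the rise of PLK2 and PLK3 belongs to either class was not tested. The largest rises of immediate early genes on the log2(TPM + 1) scale were those of CCN2, ATF3, CCN1 and MYC, at 1.26, 0.91, 0.80 and 0.73. CCN2, a secreted matrix protein, averaged 2.75 ± 0.725 TPM after BMH-21 and 0.546 ± 0.135 TPM in controls (SD, n = 3 each), 5.03-fold higher, where PLK3 was 2.63-fold higher, so the order of CCN2 and PLK3 depends on the pseudocount.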

How the data were processed

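RNA from 3 BMH-21 and 3 control libraries of HCT116 cells was analysed. The authors deposited TPM per gene and library; STAR, Salmon and GRCh38 are named, without version or role, in the submitters' processing notes. Annotation and strand setting: not given in the sources used here. Depth is unknown, so no counting interval is given. The limma p-values compare a group difference with the spread between libraries, estimated partly from all genes kept.

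The 25662 genes were filtered to 12041 with at least 1 TPM in at least 3 libraries. log2(TPM + 1) was fitted with limma 3.58.1 (R 4.3.3), an intensity trend and no covariate, two-sided, with Benjamini-Hochberg adjustment over all genes kept and a call at 0.05. The fold change on this scale understates that of low genes. The fit was tested on simulated data. Sums and ratios were compared by exact permutation.

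Members and lists were chosen with earlier results of these data known. Named genes are the members, AURKC and PLK5, the 3 nearest profiles per member, and up to 4 called genes a list with the largest changes. Exceptions are marked. Same-numbered libraries were checked for pairing. Alternatives covered the pseudocount, filter, scaling, trend, block and libraries left out.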

Additional observations from a re-analysis of the deposited data

How the results depend on the processing

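The 5 called kinases kept their direction and their call in all 80 alternative values (5 genes in 16 settings), with a largest adjusted p of 0.00018. Leaving out 1 library at a time gave -3.44 to -3.36 for AURKA, -6.01 to -5.45 for AURKB, -5.84 to -5.455 for PLK1, 2.20 to 2.41 for PLK2 and 1.32 to 1.395 for PLK3. PLK4 depended on the pseudocount, at -1.88 with 0.1 against -0.75 with 1, since its values lie near 1 TPM or under it. It had an adjusted p of 0.018 with no filter, 0.0084 without mitochondrial-encoded genes, and 0.0098 with a filter of at least 1 TPM in 2 libraries, a setting chosen after seeing the data.

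Without control replicate 1 and BMH-21 replicate 3, 4144 genes of the whole table were lower, against 2040 with all libraries, the median over all genes kept moved to -0.07, against 0.06, and 6 turnover genes were called, against 3; the cause was not tested. Same-numbered libraries did not deviate together (correlations 0.0444, -0.139 and 0.0193), which does not show whether they were handled as pairs. With the replicate block 2105 genes were lower and 2503 higher, against 2040 and 2340 without it, no kinase lost its call, and the 5 ratios between kinases gave an exact p of 0.25, the smallest that 3 pairs allow. Unknown depth limits PLK4 most.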

Other observations

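Among 17 phosphatase genes that oppose Aurora and Polo-like kinases, all kept, 4 rose, 3 fell and 10 missed the limma threshold, and their median log2 fold change was 0.20. These shares are near those of all genes kept, of which 19.4% were higher and 16.9% lower, so the counts are no result about the phosphatases. PPP2R5B and PPP2R5A, regulatory subunits of protein phosphatase 2A of the B56 family, had log2 fold changes of 0.86 and 0.68, and the catalytic subunit PPP2CB 0.73. PPP2R5D, another B56 subunit, averaged 39.2 ± 2.57 TPM after BMH-21 and 65.8 ± 0.940 TPM in controls (SD, n = 3 each), a log2 fold change of -0.73. PPP6C, the catalytic subunit of the phosphatase that acts on the activation loop of Aurora A, had -0.50 and passed as lower. PPP6C falls outside the naming rule and was picked with its value in view. Set beside AURKB at -5.75 and PLK1 at -5.69, each of these 17 genes moved by less than 1 on the log2 scale.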
